A study of Mus musculus with 15 samples.

Results

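The mouse Fc receptor genes Fcgr1, Fcgr2b, Fcgr3, Fcgr4, Fcer1g and Fcgrt were followed in bone marrow-derived macrophages (BMDMs) after activation of TLR3 or TLR7. The 6 genes were taken by name from the deposited tables, which hold 25814 genes, and all 6 were among the 11804 genes that passed the filter on low counts. RNA-seq had been done on 15 libraries, 5 a group. The groups were BMDMs given 10 µg/ml poly(I:C), a man-made double-stranded RNA sensed by TLR3, BMDMs given 4 µM CL075, a small molecule that activates TLR7, and control BMDMs, with 6 h of treatment. The cells of every group came from tibiae and femurs of adult WT C57BL/6 mice and had grown for 6 days in 10% FBS with 20% L929-conditioned medium, which supplies the macrophage growth factor M-CSF. The labels do not say whether replicates are separate animals or cultures, so the p-values measure only the spread between these libraries, which may be technical.

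Fc receptors bind the constant part of antibodies and let macrophages take up particles and immune complexes coated with IgG. In mice, FcγRI (Fcgr1), FcγRIII (Fcgr3) and FcγRIV (Fcgr4) are activating receptors that depend on the FcR γ chain (Fcer1g), an adaptor whose ITAM motif recruits the kinase Syk. FcγRIIb (Fcgr2b) is the inhibitory receptor, whose ITIM motif recruits the phosphatase SHIP-1 (Inpp5d). FcRn (Fcgrt) pairs with β2-microglobulin (B2m) and returns IgG from endosomes to the surface.

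Libraries held 26530525 to 32487565 counts with poly(I:C), 21816291 to 32042680 with CL075 and 25661175 to 31159953 in control BMDMs. Macrophage markers were abundant, and 7 of the 8 listed were measured, with a summed level of 37750 to 41676 TPM, the deposited length-scaled unit, in poly(I:C), 48750 to 56241 TPM in CL075 and 64340 to 70765 TPM in control libraries. Lyz2 made up most of that sum, with means of 34019, 45938 and 61245 TPM in the same order. Fcgr1, a gene under study, is also part of it. The scale between libraries bears on every value below. TMM factors, which set most genes level, were 0.683 to 0.721 in poly(I:C), 1.03 to 1.09 in CL075 and 1.33 to 1.38 in control libraries. Under TMM the median of all genes on the log2 scale was -0.08 for poly(I:C) against control, -0.02 for CL075 against control and -0.01 for poly(I:C) against CL075. With library totals as the scale, which is close to the deposited TPM, these medians were -1.019, -0.37 and -0.60. Of the genes called, 45.5%, 45.1% and 48.9% were higher under TMM in the same order of comparisons, and 16.8%, 22.4% and 22.4% under library totals. With poly(I:C), 3 of the 7 macrophage markers were called higher under TMM (25.4% of all genes) and 0 lower (30.5%). Under library totals 1 was higher and 4 lower (1546 and 7663 of all 11804 genes). With CL075, 2 were higher (17.6%) and 1 lower (21.5%, Mertk at -2.06 on the log2 scale). On library totals these counts were 1 and 2 (1208 and 4184 of all genes). Each change is therefore given relative to the TMM scale, and ratios between genes of the same library, which need no scale, are given beside it.

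Of the 6 genes, 4 sit together on chromosome 1 of GRCm38, Fcgr2b at chr1:170958617-170976547 (minus strand), Fcgr4 at chr1:171018920-171029761 (plus strand), Fcgr3 at chr1:171051174-171064935 (minus strand) and Fcer1g at chr1:171229572-171234365 (minus strand). Fcgr1 lies at chr3:96282909-96293969 and Fcgrt at chr7:45092990-45103851, both on the minus strand. All are protein-coding genes measured over their exons. The promoters of 3 receptors are shown. Fcgr4 and Fcgr1 had the largest differences between poly(I:C) and CL075, and Fcgr2b was not called between the ligands. Each run is the RefSeq window of GRCm38.p6 from 250 bases before to 50 after the start site, 5′ to 3′ on the gene's strand, at chr1:171018676-171018975 for Fcgr4, chr3:96293920-96294219 for Fcgr1 and chr1:170976022-170976321 for Fcgr2b. Capitals mark a match to the interferon-stimulated response element core (ISRE, GAAA and GAAA around 2 bases of any kind) or to the GAS site (TTCNNNGAA), both searched on both strands.
Fcgr4: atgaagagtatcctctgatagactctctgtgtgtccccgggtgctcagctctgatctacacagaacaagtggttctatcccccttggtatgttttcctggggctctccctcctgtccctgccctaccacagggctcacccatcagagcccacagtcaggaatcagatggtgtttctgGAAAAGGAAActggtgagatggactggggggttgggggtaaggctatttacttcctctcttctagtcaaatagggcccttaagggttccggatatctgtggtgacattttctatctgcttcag
Fcgr1: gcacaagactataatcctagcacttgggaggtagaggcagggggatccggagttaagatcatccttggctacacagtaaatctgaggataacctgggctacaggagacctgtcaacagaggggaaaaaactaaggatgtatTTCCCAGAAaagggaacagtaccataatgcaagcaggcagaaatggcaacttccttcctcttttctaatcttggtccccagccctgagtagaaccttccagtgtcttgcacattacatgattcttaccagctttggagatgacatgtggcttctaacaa
Fcgr2b: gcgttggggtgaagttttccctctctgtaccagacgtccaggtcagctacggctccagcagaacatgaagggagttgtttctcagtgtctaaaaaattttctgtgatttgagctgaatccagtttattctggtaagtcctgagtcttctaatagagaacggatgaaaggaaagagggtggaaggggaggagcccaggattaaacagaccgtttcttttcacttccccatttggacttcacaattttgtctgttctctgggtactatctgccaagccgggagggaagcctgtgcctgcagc
The Fcgr4 window held an ISRE core at bases -73 to -64 from the start site, and 3.44% of all 32851 promoter windows held one. The Fcgr1 window held a GAS site at -109 to -101, which 8.30% of windows held. Both windows also held the PU.1 core GAGGAA, searched on both strands and found on the opposite strand, at -22 to -17 in Fcgr4 and -55 to -50 in Fcgr1, and so did both annotated start sites of Fcgr3, with 28.3% of all windows holding it. The NF-kB consensus, GGGA and TTTCC around 1 base of any kind, in 0.411% of windows, matched no Fc receptor window, and Fcgr2b, Fcer1g and Fcgrt matched none of the 4 motifs, which did not overlap each other in these windows. A match is a run of letters and not a shown binding site.

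With poly(I:C), 4 of the 6 genes were called higher than in control BMDMs (Fcgr4, Fcgr1, Fcgr2b and Fcer1g) against 25.4% of all tested genes, and Fcgrt was called lower against 30.5%. Calls were made where edgeR gave an adjusted p under 0.05, the groups differed by more than 1.5-fold and at least 1 of them averaged over 0.5 TPM. In either direction 55.9% of genes were called with poly(I:C), 39.1% with CL075 and 46.5% between the ligands. With CL075, 3 were called higher (Fcgr2b, Fcgr1 and Fcgr4) against 17.6% of genes, and Fcgrt was called lower against 21.5%. Set directly against CL075, poly(I:C) had 4 genes called higher (Fcgr4, Fcgr1, Fcgrt and Fcgr3) against 22.7% of genes and 0 called lower against 23.7%. Overlap between the libraries of both groups was judged on counts scaled by TMM-adjusted library size. Without overlap, poly(I:C) against control had 5 of the 6 genes higher and 1 lower (35.6% and 40.3% of all genes). CL075 against control had 4 higher and 1 lower (31.9% and 33.4%), and poly(I:C) against CL075 had 5 higher and 0 lower (32.8% and 33.4%). By TPM, Fcgr3 was below control without overlap in both treated groups, and Fcer1g overlapped control in both. Between the ligands, all Fcgr2b values of poly(I:C) libraries (154 to 179 TPM) lay under those of CL075 libraries (208 to 256 TPM). Fcgr3, Fcer1g and Fcgrt overlapped between the ligands by TPM. The median log2 fold change of the 6 genes was 1.42 with poly(I:C) and 0.72 with CL075. The calls of Fcgr4, Fcgr1 and Fcgr2b against control held under all 5 scales tried, as did that of Fcgrt with CL075, whereas those of Fcer1g and Fcgrt with poly(I:C) did not. In bulk RNA, more cells that express a gene and more RNA per cell cannot be told apart.

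**Figure D1:**
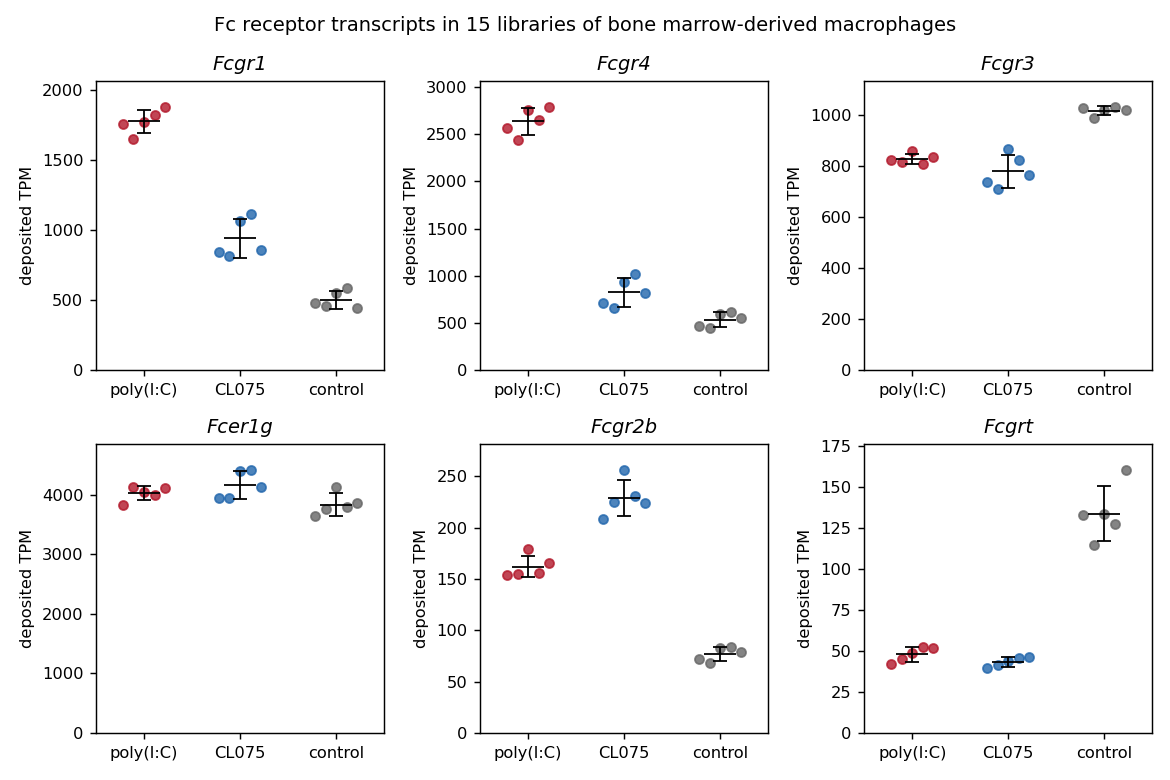
Deposited TPM of the 6 Fc receptor genes in each library (points) of poly(I:C), CL075 and control BMDMs, with the mean and SD of 5 libraries as a bar and whiskers. Fcgr4 in the 5 poly(I:C) libraries sits between 2434 and 2784 TPM, above every CL075 and control library, and Fcgrt in control libraries sits above every treated library.

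Among the activating receptors, Fcgr4 had the largest change with poly(I:C), and Fcgr1 with CL075. FcγRIV is the mouse receptor for IgG2a and IgG2b. Fcgr4 stood at 2563, 2434, 2752, 2654 and 2784 TPM in poly(I:C) libraries, at 708, 655, 937, 1021 and 816 TPM in CL075 libraries and at 468, 447, 599, 620 and 549 TPM in control libraries. The 3 groups did not overlap, and the CL075 libraries came close to the control ones. Poly(I:C) gave a log2 fold change of 3.15 over control (standard error 0.13, edgeR adjusted p = 3.8e-14), an 8.87-fold rise, and CL075 gave 0.98 (standard error 0.12, adjusted p = 6.7e-07). Directly, poly(I:C) exceeded CL075 by 2.17 on the log2 scale (95% interval 1.91 to 2.43, edgeR adjusted p = 7.8e-12). Over the 5 scales the log2 fold change lay between 2.21 and 3.21 with poly(I:C) and between 0.62 and 1.02 with CL075. By level, Fcgr4 ranked 43 of 11804 genes with poly(I:C), 178 with CL075 and 256 in control BMDMs.

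Fcgr1, which encodes the high-affinity receptor for IgG2a, rose with both ligands and more with poly(I:C). Its level was 1758, 1651, 1773, 1816 and 1874 TPM with poly(I:C), 845, 813, 1064, 1116 and 858 TPM with CL075, and 476, 456, 551, 587 and 444 TPM in control BMDMs. No library of any group reached into the next, and replicates 3 and 4 were the highest of both CL075 and control libraries. The fold change was 6.36 with poly(I:C) (log2 2.67, standard error 0.11, edgeR adjusted p = 5.0e-14) and 2.38 with CL075 (log2 1.25, standard error 0.11, adjusted p = 4.4e-09). The direct difference was 1.42 on the log2 scale in favour of poly(I:C) (95% interval 1.19 to 1.64, edgeR adjusted p = 4.9e-10) and stayed between 0.84 and 1.44 over the 5 scales.

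Fcgr3 encodes the low-affinity receptor for immune complexes and was the most abundant activating receptor transcript of control BMDMs. By TPM it was lower with treatment, at 824, 815, 861, 810 and 835 in poly(I:C), 736, 711, 866, 824 and 765 in CL075 and 1030, 989, 1019, 1031 and 1022 in control libraries. By CPM (counts scaled by TMM-adjusted library size) it stood at 745, 768, 794, 725 and 754 in poly(I:C), 461, 460, 561, 558 and 472 in CL075 and 518, 508, 515, 529 and 507 in control libraries. The direction against control thus rested on the scale. Under TMM the log2 value with poly(I:C) was 0.56 (standard error 0.06, edgeR adjusted p = 7.8e-08), a 1.47-fold difference that missed the call, and under library totals -0.38. With CL075 the value was -0.04 (95% interval -0.16 to 0.09, edgeR adjusted p = 0.59), the groups overlapped, and it reached -0.39 under library totals. Directly, poly(I:C) exceeded CL075 by 0.59 (edgeR adjusted p = 4.0e-08), a 1.51-fold difference at the edge of the call, and by 0.01 under library totals. That call was lost without poly(I:C) replicate 1, 2 or 3 or CL075 replicate 1, 2 or 5, each left out in turn, with values of 0.56 to 0.58. Within a library, Fcgr4 over Fcgr3 (ratio of TPM) averaged 3.18 ± 0.14 with poly(I:C), 1.05 ± 0.12 with CL075 and 0.526 ± 0.071 in control BMDMs (SD, n = 5 each), with no overlap between groups.

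Fcer1g, the γ chain shared by the activating receptors, was the most abundant of the 6 transcripts in every group and ranked 28 of 11804 genes with poly(I:C), 19 with CL075 and 20 in control BMDMs. Its TPM was 3832, 4127, 4051, 3995 and 4115 with poly(I:C), 3947, 3939, 4398, 4415 and 4130 with CL075, and 3637, 3761, 4137, 3788 and 3855 in control BMDMs, so that groups overlapped on that scale. By CPM it was 1591, 1787, 1717, 1643 and 1706 with poly(I:C), 1135, 1170, 1308, 1374 and 1171 with CL075, and 841, 887, 960, 892 and 878 in control BMDMs, with no overlap. Under TMM its log2 difference from control was 0.92 in poly(I:C) libraries (standard error 0.06, edgeR adjusted p = 7.3e-11), a call, and 0.47 with CL075 (standard error 0.06, adjusted p = 1.6e-06), which missed the fold for a call. Under library totals the poly(I:C) value was -0.02 and with Hprt, the gene the study used to normalise RT-PCR, it was 0.37, neither called. On every scale tried the change of Fcer1g against control was smaller than that of Fcgr1, Fcgr2b and Fcgr4. The high-affinity IgE receptor, which needs the same chain in mast cells, was near absent, with 0 to 2 counts of its α chain gene Fcer1a per poly(I:C) library, 0 to 2 per CL075 library and 0 to 5 per control library.

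The inhibitory receptor Fcgr2b rose with both ligands. It stood at 154, 155, 179, 156 and 166 TPM with poly(I:C), 208, 225, 256, 231 and 225 TPM with CL075, and 71.7, 68.3, 83.0, 83.8 and 78.8 TPM in control BMDMs. Every treated library exceeded every control library. Over control, the log2 difference was 1.92 in poly(I:C) libraries (standard error 0.07, edgeR adjusted p = 1.8e-14) and 1.92 with CL075 (standard error 0.07, adjusted p = 6.9e-14), and over the 5 scales 0.99 to 1.99 with poly(I:C) and 1.57 to 1.96 with CL075. Under TMM the direct difference was 0.01 (95% interval -0.14 to 0.16, edgeR adjusted p = 0.94), with CPM of 326, 343, 387, 327 and 351 in poly(I:C) libraries and 305, 341, 388, 367 and 324 in CL075 libraries. That closeness rested on the scale, because poly(I:C) lay below CL075 by TPM with no overlap, and by 0.58 on the log2 scale under library totals (edgeR adjusted p = 9.0e-08), 0.26 with Hprt and 0.16 with upper-quartile factors. By rank of log2 fold change, Fcgr2b was 1323 of 11804 genes with poly(I:C) and 481 with CL075. B cells also use this receptor, and of their 6 markers 5 were below a mean of 0.5 TPM in poly(I:C), 5 in CL075 and 4 in control libraries, with a summed level of 3.40 to 4.63, 4.42 to 6.03 and 25.4 to 29.7 TPM in these groups. Cd79b, their most abundant marker, was called lower with both ligands, and the part of B cells in the Fcgr2b values was not tested.

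Fcgrt, which encodes FcRn, was lower with both ligands. Its TPM was 41.9, 45.0, 49.0, 52.6 and 51.8 with poly(I:C), 39.6, 41.4, 43.7, 45.7 and 46.5 with CL075, and 133, 115, 134, 127 and 160 in control BMDMs. Control libraries lay above every treated library, and control replicate 5 was the highest. With CL075 the log2 fold change was -1.28 (standard error 0.08, edgeR adjusted p = 4.3e-11) and between -1.63 and -1.24 over the 5 scales. With poly(I:C) it was -0.62 (standard error 0.08, edgeR adjusted p = 4.9e-07) and between -1.56 and -0.56, and the call was lost without control replicate 5 (-0.56) and with DESeq2 size factors (-0.56), where the fold fell under 1.5. Poly(I:C) exceeded CL075 by 0.65 under TMM (95% interval 0.48 to 0.82, edgeR adjusted p = 4.9e-07) and by 0.07 under library totals, where the call was lost. Its partner B2m, also a part of MHC class I, was called higher with poly(I:C) (log2 fold change 1.38, standard error 0.07, edgeR adjusted p = 4.4e-13), a call lost under library totals (0.44), and was at 0.40 with CL075 (standard error 0.07, adjusted p = 2.2e-05), not called. The ratio of Fcgrt to B2m (TPM) was 0.00333 ± 0.00031 with poly(I:C), 0.00417 ± 0.00015 with CL075 and 0.0133 ± 0.0016 in control BMDMs (SD, n = 5 each), without overlap between the 3 groups.

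**Figure D2:**
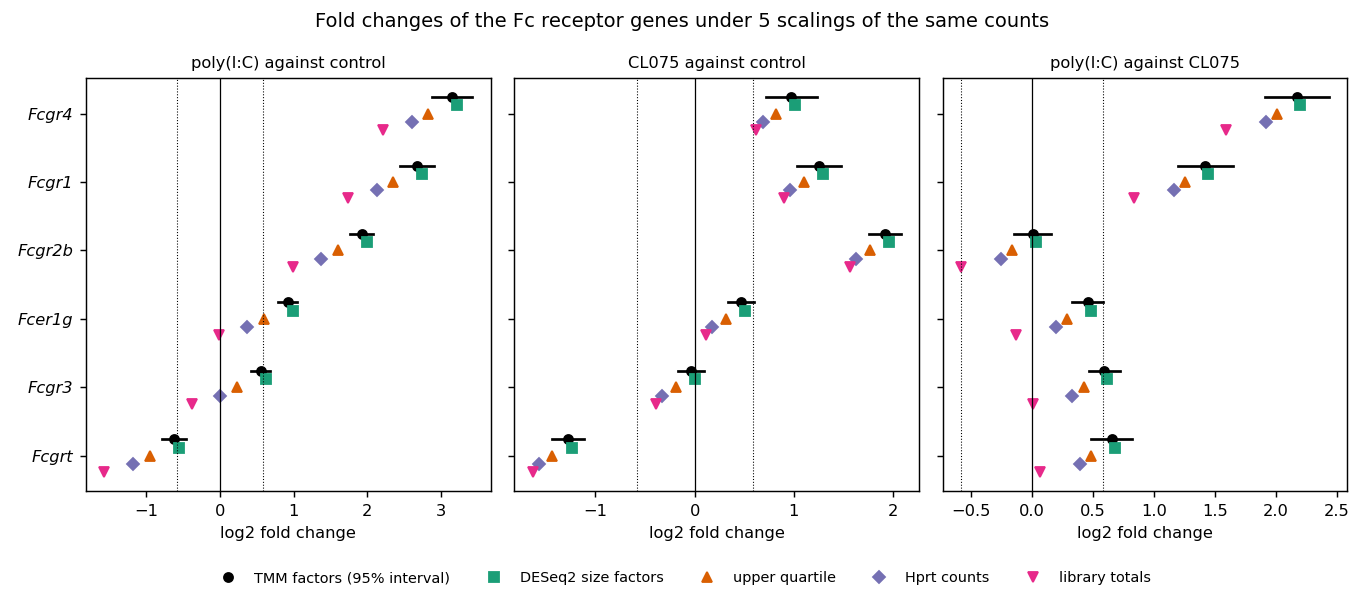
Log2 fold change of each Fc receptor gene (x axis) in the 3 comparisons under 5 scalings of the same counts, with the 95% interval under TMM as a line and dotted lines at a fold of 1.5. Against control, Fcgr4, Fcgr1 and Fcgr2b lie right of 0 and Fcgrt left of 0 on all 5 scales, whereas Fcer1g and Fcgr3 with poly(I:C) cross 0 under library totals.

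By level, the order of the activating receptors changed with treatment. With poly(I:C) the mean TPM ran Fcgr4 (2638 ± 143), Fcgr1 (1775 ± 82) and Fcgr3 (828.9 ± 20.1), with no overlap between neighbours (SD, n = 5). With CL075 it ran Fcgr1 (939 ± 140), Fcgr4 (827 ± 153) and Fcgr3 (780 ± 64), and these 3 overlapped. In control BMDMs it ran Fcgr3 (1018 ± 17), Fcgr4 (536 ± 77) and Fcgr1 (503 ± 63), with overlap of Fcgr4 and Fcgr1 only. Fcgr2b and Fcgrt were the lowest in each group, Fcgrt below Fcgr2b in treated cells and above it in control BMDMs.

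Shares of the 4 Fcγ receptor transcripts need no scale between libraries, but they rest on the length scaling of TPM. By mean counts, Fcgr1 (51932) exceeded Fcgr4 (37420) with poly(I:C). Fcgr4 made up 48.8% ± 0.5 of their summed TPM with poly(I:C), 29.6% ± 1.9 with CL075 and 25.03% ± 2.02 in control BMDMs (SD, n = 5 each). Fcgr3 made up 15.4% ± 0.5 with poly(I:C), 28.3% ± 1.6 with CL075 and 47.9% ± 2.9 in control BMDMs. The share of Fcgr1 was 32.8% ± 0.6, 33.8% ± 1.0 and 23.5% ± 1.5 in poly(I:C), CL075 and control BMDMs, overlapping between the treated groups and lower in control BMDMs. Inhibitory Fcgr2b made up 3.002% ± 0.144 with poly(I:C), 8.32% ± 0.75 with CL075 and 3.61% ± 0.12 in control BMDMs, with no overlap between groups. No p is given for these ratios, since the genes were chosen with results known.

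The balance of activating over inhibitory transcripts, (Fcgr1 + Fcgr3 + Fcgr4) over Fcgr2b by TPM, was 33.4, 31.5, 30.0, 33.8 and 33.1 in poly(I:C) libraries, 10.99, 9.68, 11.2, 12.8 and 10.9 in CL075 libraries and 27.5, 27.7, 26.1, 26.7 and 25.6 in control libraries. The groups did not overlap, with poly(I:C) above control and CL075 below both. The mean ratio with poly(I:C) was 1.21 times that of control BMDMs, and with CL075 it was 0.414 times. Leaving Fcgr3 out, the ratio by TPM was 27.3 ± 1.4 with poly(I:C), 7.69 ± 0.98 with CL075 and 13.4 ± 0.7 in control BMDMs. By geometric mean that was 2.03 times control with poly(I:C) and 0.569 times with CL075. Fcgr3 alone over Fcgr2b went the other way with poly(I:C), at 5.12 ± 0.21 with poly(I:C), 3.41 ± 0.16 with CL075 and 13.3 ± 1.1 in control BMDMs. The activating transcripts over their γ chain Fcer1g were at 1.30 ± 0.07 with poly(I:C), 0.609 ± 0.050 with CL075 and 0.537 ± 0.033 in control BMDMs, and the CL075 and control libraries overlapped.

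**Figure D3:**
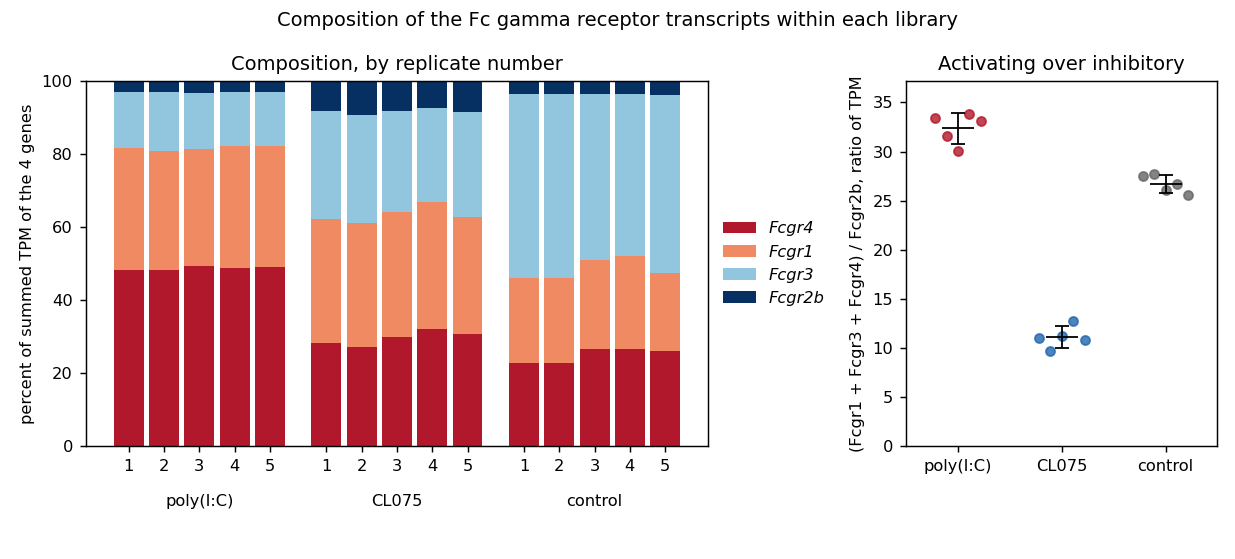
Left, each library's summed TPM of Fcgr4, Fcgr1, Fcgr3 and Fcgr2b split in percent (stacked bars, replicate numbers below). Right, the ratio of the 3 activating transcripts to Fcgr2b per library (points) with mean and SD, which sits between 30.0 and 33.8 with poly(I:C), 9.68 and 12.8 with CL075 and 25.6 and 27.7 in control BMDMs.

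Fcgr3 and Fcgr2b share sequence, which limits how their reads can be told apart. Of the 75-base windows of Fcgr3 transcripts, the length of a read before trimming, 5.42% (94 of 1733) also occur in Fcgr2b on the same strand. Of Fcgr2b windows, 2.71% (156 of 5768) occur in another gene on the same strand, 94 of them in Fcgr3. A further 3.73% (215) occur in another gene on the opposite strand. At this length Fcgr1, Fcgr4, Fcer1g and Fcgrt share 0 with any other gene. The authors kept trimmed reads down to 25 bases. At 25 bases, 15.2% of Fcgr3 windows and 6.52% of Fcgr2b windows occur in another gene on the same strand. For Fcgr4 and Fcgrt the shares were 1.95% and 2.17%. The authors kept reads with up to 5 hits in the genome, and how such reads were shared out was not tested. Fcgr2b exons overlap the antisense gene Gm38204 over 155 of 5790 bases (2.68%), and the sources used here do not say whether strand was used in counting. With the counts of Fcgr2b and Fcgr3 summed, the pair was 0.86 higher with poly(I:C), past the call, and 0.48 higher with CL075, not past it, on the log2 scale.

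Markers of other cells that carry Fc receptors moved in places. Of 9 neutrophil markers, 8 were tested, and their summed level was 227 to 577 TPM with poly(I:C), 733 to 1153 TPM with CL075 and 174 to 510 TPM in control BMDMs. S100a8, S100a9 and Csf3r made up most of that level in each group. With poly(I:C), 2 of the 8 were called higher (S100a9 and Csf3r) and 0 lower (25.4% and 30.5% of all genes). With CL075, 4 were called higher (S100a8, Csf3r, Camp and Mmp8) and 0 lower (17.6% and 21.5%). Under library totals 1 was called higher and 2 lower for poly(I:C) (1546 and 7663 of all 11804 genes). For CL075, 3 were higher and 0 lower on that scale (1208 and 4184). Csf3r, the receptor for G-CSF, had log2 fold changes of 1.70 with poly(I:C) and 1.83 with CL075, and S100a8 of 2.71 with CL075. The granulocyte markers Ly6g (not tested), Elane and Mpo (not called) averaged 0.170, 0.784 and 0.788 TPM with poly(I:C), 0.0347, 0.812 and 0.875 TPM with CL075, and 0.0537, 1.26 and 1.21 TPM in control BMDMs. Of 8 mast cell and basophil markers, 7 were below a mean of 0.5 TPM in each group, with Mcpt4 and Cma1 at 0 counts. The 7 dendritic cell markers summed to 11.9 to 16.0 TPM with poly(I:C), 6.04 to 10.9 TPM with CL075 and 5.48 to 12.1 TPM in control BMDMs. Of the 5 tested, 3 were called higher with poly(I:C) (Clec9a, Xcr1 and Dpp4, against 25.4% of all genes) and 0 with CL075 (17.6%). Clec9a had the largest change (6.57 ± 0.87 TPM against 0.163 ± 0.022 TPM in control BMDMs, SD, n = 5 each), with poly(I:C). The part of these cells in the Fc receptor values was not tested.

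Of 13 other Fc receptor and immunoglobulin-binding genes, 5 were tested, and 3 were called higher and 0 lower by each ligand under TMM. Under library totals 2 were called higher and 2 lower for poly(I:C), and 2 higher and 0 lower for CL075. Trim21, the cytosolic receptor for the Fc part of antibodies on viruses, was 11.1-fold higher with poly(I:C) (log2 3.47, standard error 0.08, edgeR adjusted p = 2.6e-17) and at 0.49 with CL075 (standard error 0.08, adjusted p = 1.9e-05), not called, and the direct difference was 2.98 (standard error 0.08, adjusted p = 2.5e-16). Fcrls, a macrophage Fc receptor-like gene of mice, was not called in either comparison under TMM (0.07 and -0.21) and was called lower with poly(I:C) under library totals (-0.87). Fcrlb, an intracellular member of the family, was called higher in both but rested on few reads, with sums over 5 libraries of 136 counts with poly(I:C), 49 with CL075 and 9 in control BMDMs.

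The γ chain also serves other receptors. Clec4e (Mincle), a receptor for glycolipids that signals through Fcer1g, was 55.1-fold higher with poly(I:C) (log2 5.78, standard error 0.10, edgeR adjusted p = 6.3e-19) and 78.2-fold higher with CL075 (log2 6.29, standard error 0.11, adjusted p = 1.4e-18). Its partner Clec4d was called higher with CL075 (1.35) and not called with poly(I:C) (0.52, turning to -0.42 under library totals), and the direct difference was -0.83 (edgeR adjusted p = 9.4e-09). Of 5 such genes tested, 1 was called higher with poly(I:C) (25.4% of all genes) and 3 with CL075 (17.6%). With each ligand 0 were called lower (30.5% and 21.5% of all genes). The other adaptors Tyrobp (DAP12, with an ITAM) and Hcst (DAP10) were not called with either ligand under TMM, and were called lower with poly(I:C) under library totals.

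Downstream of activating receptors, 14 of 27 tested kinases and scaffolds were called higher with poly(I:C) (25.4% of all genes) and 4 called lower (30.5%). Their median log2 fold change was 0.68, against -0.08 for all genes. With CL075, 12 were higher (17.6% of all genes) and 4 lower (21.5%), with a median of 0.30 against -0.02. Under library totals these counts were 7 higher and 13 lower for poly(I:C) (1546 and 7663 of all 11804 genes). With CL075 they were 9 higher and 6 lower (1208 and 4184 of all genes). Between the ligands, 9 of the 27 were called higher and 7 lower with poly(I:C) under TMM (22.7% and 23.7% of all genes). On library totals 1 was higher and 13 lower (1629 and 5631 of all 11804 genes). Syk was not called with poly(I:C) (0.08) and was called higher with CL075 (1.42, edgeR adjusted p = 1.4e-15). Its direct difference was -1.35 (edgeR adjusted p = 9.6e-16). Lyn, a Src-family kinase that phosphorylates ITAMs, was called higher with both ligands on all 5 scales. Lyn was at 2.37 with poly(I:C) (standard error 0.07, edgeR adjusted p = 1.4e-16) and 1.69 with CL075 (standard error 0.06, adjusted p = 4.8e-14). Src, low in level, rose to 9.75 ± 1.16 TPM with poly(I:C) and 7.55 ± 0.65 TPM with CL075, against 1.12 ± 0.13 TPM in control BMDMs (SD, n = 5 each).

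Downstream of inhibitory receptors, 3 of 9 genes were called higher and 2 lower for poly(I:C) (25.4% and 30.5% of all genes). With CL075, 4 were higher and 0 lower (17.6% and 21.5%). Their median was -0.05 with poly(I:C) and 0.46 with CL075. On library totals poly(I:C) had 0 higher and 5 lower (1546 and 7663 of all 11804 genes). CL075 had 1 higher and 2 lower there (1208 and 4184). Inpp5d, the SHIP-1 phosphatase that FcγRIIb recruits, was called lower with poly(I:C) (log2 fold change -0.59, standard error 0.04, edgeR adjusted p = 1.1e-10), narrowly past the fold and not with DESeq2 size factors (-0.52). With CL075 Inpp5d stood at -0.39, not called under TMM. Over the 5 scales it lay between -1.53 and -0.52 with poly(I:C) and between -0.74 and -0.35 with CL075. Whether it was called depended on the scale for both ligands. Ptpn6, the SHP-1 phosphatase, was not called with poly(I:C) (-0.14, but -1.08 and called lower under library totals) and was called higher with CL075 (1.14, standard error 0.08, edgeR adjusted p = 2.4e-10), a direct difference of -1.28 (adjusted p = 2.8e-11). Dok1, an adaptor of inhibitory signalling, was called higher with poly(I:C) (1.35, a call lost under library totals at 0.41) and not called with CL075 (0.25, turning to -0.10 under library totals).

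Of 10 genes listed as other inhibitory receptors of myeloid cells, 5 were called higher and 2 lower for poly(I:C) (25.4% and 30.5% of all genes). For CL075, 6 were higher and 1 lower (17.6% and 21.5%). Under library totals 2 were higher and 5 lower for poly(I:C), where 1546 and 7663 of all 11804 genes were. CL075 had 5 higher and 2 lower on that scale (1208 and 4184 of all genes). Pirb, a receptor for MHC class I, was at 1.52 with poly(I:C) (not called under library totals, 0.58) and 2.08 with CL075 on the log2 scale. Pilra was called higher by both, at 1.73 for poly(I:C) and 2.73 for CL075. Lilr4b rose more with poly(I:C) (2.14) than with CL075 (1.27, direct difference 0.86, edgeR adjusted p = 8.3e-08), a difference no longer called under library totals (0.28). Lilr4b is counted by its place on the list, and an inhibitory role of its product was not tested. The similarly named Lilrb4a was called higher with poly(I:C) (1.42) and CL075 (0.88), with a direct difference of 0.55, not called. Cd300a, a receptor for lipids of dying cells, fell to 14.6 ± 1.2 TPM with poly(I:C) and 31.0 ± 2.9 TPM with CL075, against 135 ± 8 TPM in control BMDMs (SD, n = 5 each).

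Genes of the phagocytic cup were called higher in 8 of 25 cases and lower in 6 with poly(I:C) (25.4% and 30.5% of all genes). With CL075 the counts were 9 and 1 (17.6% and 21.5%). Their median was 0.30 with poly(I:C) and 0.35 with CL075. On library totals the counts were 1 and 13 for poly(I:C) (1546 and 7663 of all 11804 genes). For CL075 they were 4 and 4 (1208 and 4184). Myo10, an unconventional myosin of Fc receptor phagocytosis, was called higher with poly(I:C) (3.08, standard error 0.09, edgeR adjusted p = 3.0e-16) and CL075 (1.97, standard error 0.09, adjusted p = 4.9e-13). Vasp, an actin elongation factor, was called higher by both, at 0.74 for poly(I:C) and 2.17 for CL075, and its poly(I:C) value turned to -0.19 under library totals. Actr3, a subunit of the Arp2/3 complex, was at 1.31 and 0.71 with poly(I:C) and CL075, calls lost under library totals, and Cfl1, which severs actin, at 0.40 (-0.53 under library totals) and 0.56, not called.

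Among 6 tested genes of FcRn partnering and recycling, 3 were called higher and 1 called lower for poly(I:C) (25.4% and 30.5% of all genes). For CL075, 1 was higher and 0 lower (17.6% and 21.5%). Ehd1, which acts in recycling endosomes, was called higher with both (1.86 with poly(I:C), standard error 0.07, edgeR adjusted p = 1.5e-14, and 2.77 with CL075, standard error 0.07, adjusted p = 3.6e-16). Rab11a, a GTPase of recycling endosomes, was not called (0.37 with poly(I:C), which turned to -0.57 under library totals, and 0.47 with CL075).

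All 10 listed transcription factors were called with poly(I:C), 8 higher and 2 lower (25.4% and 30.5% of all genes). With CL075, 4 were called higher and 1 lower (17.6% and 21.5%). Stat2, a part of the complex that binds ISRE sites, rose by 2.38 with poly(I:C) and by 0.66 with CL075, and the CL075 call was lost under library totals (0.31). The direct difference was 1.73 (edgeR adjusted p = 2.4e-11). Cebpa, a myeloid factor, fell by 3.59 with poly(I:C) and by 1.75 with CL075, while Cebpb was called higher with both (1.30 and 1.79), the poly(I:C) call being lost under library totals (0.36).

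**Figure D4:**
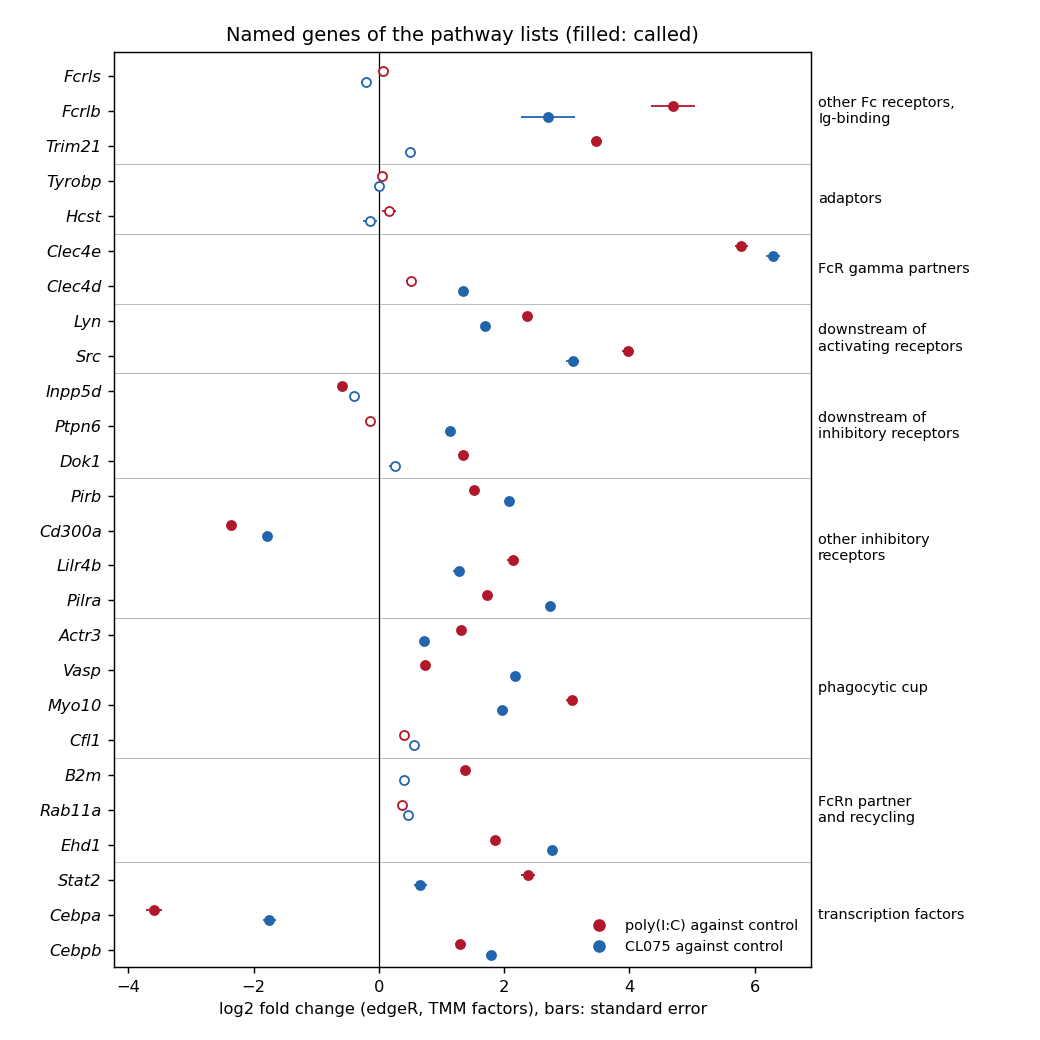
Log2 fold change against control (x axis, edgeR with TMM factors, bars are standard errors) of the genes described from 9 lists, Syk left out, with poly(I:C) in red and CL075 in blue and filled points for called genes. Clec4e has the largest rise with both ligands (5.78 and 6.29), Cebpa the lowest value with poly(I:C) (-3.59) and Cd300a the lowest with CL075 (-1.78).

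The genes whose log2 CPM followed each Fc receptor most closely over the 15 libraries were sought among 8533 genes with a mean of at least 5 TPM, as a description, because the libraries fall into 3 groups and share culture and preparation. For Fcgr4 these were Ms4a4c and Fgl2 (Pearson's r of 0.998 and 0.998), for Fcgr1 Rnf114 and Lgals9 (0.998 and 0.998), and for Fcgr2b March1 and Pfkfb3 (0.998 and 0.995). Psmb1 and Slu7 were closest to Fcgr3 (0.985 and 0.980), Tmbim4 and Srsf3 to Fcer1g (0.994 and 0.993), and Eps8 and Man2b1 to Fcgrt (0.986 and 0.985). Ms4a4c and Fgl2 had log2 fold changes of 5.51 and 5.66 with poly(I:C), and March1 of 1.97 with poly(I:C) and 1.97 with CL075.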

How the data were processed

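RNA-seq was deposited for 15 libraries in 3 groups of 5. Per the study's methods, RNA was extracted with Trizol, a stranded mRNA kit was used, reads were single-end, and the authors trimmed and mapped reads to GRCm38.p6 in CLC Genomics Workbench, keeping reads with up to 5 hits. The deposited counts are whole reads per gene from that mapping, not normalized. The deposited TPM values are the authors' counts scaled by transcript length and library total. The submitters' processing notes also name HISAT2, featureCounts and edgeR. The 20 RPKM columns, and the authors' own fold changes and p-values, were not used.

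Counts were tested with edgeR 4.0.16 (R 4.3.3, TMM factors, quasi-likelihood fit over 15 libraries, no replicate term) on 11804 genes kept by its expression filter, with Benjamini-Hochberg adjustment over those genes. The steps were tested on simulated data. Alternatives used limma 3.58.1, DESeq2 1.42.0 and other scales. Ratios were computed from TPM, except where counts are named, and plots drawn with matplotlib 3.10.9. From each gene list the 2 members with the highest mean TPM and the called member with the largest change in each comparison with control were named, and for each receptor gene the 2 genes closest by correlation. Of these, 2 list members are not reported here. Syk, markers of other cells, summed receptor levels and genes singled out beside them were given outside that rule. The members and lists were chosen with earlier results of these data known. Depth is given with the results, and the number of libraries limits the precision.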

Additional observations from a re-analysis of the deposited data

How the results depend on the processing

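Against control, the calls of Fcgr4 and Fcgr1 held under every alternative run, and that of Fcgrt with CL075 too. Fcgr2b lost its CL075 call only when summed with Fcgr3 (0.48). All values are log2 fold changes unless they count genes, and the cause of a change was not tested. For poly(I:C) against control, Fcgr3 was 0.62 with DESeq2 size factors and 0.62 with its Wald test, 0.59 with only the groups compared, 0.86 summed with Fcgr2b and 1.86 with Fcgr2b and Fcgr4, all past the call, and -0.38 under library totals and -0.30 with limma on TPM. Fcgrt lost its call with DESeq2 size factors (-0.56), the DESeq2 test (-0.56) and a test against a fold of 1.5 (-0.62), and ranged from -0.67 to -0.56 with single libraries left out. Fcer1g was -0.016 under library totals, 0.37 with Hprt and 0.070 with limma. For CL075 against control, Fcgr3 was 0.0043 with DESeq2 size factors and 0.0043 with its test, 0.48 summed with Fcgr2b and 0.63 with Fcgr2b and Fcgr4.

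For poly(I:C) against CL075, Fcgr2b was -0.16 with upper-quartile factors, -0.58 under library totals, -0.26 with Hprt, -0.021 without a filter, -0.50 with limma and 1.23 summed with Fcgr3 and Fcgr4, and ranged from -0.055 to 0.051 with single libraries left out. Fcgr3 was 0.42, 0.0061, 0.33, 0.56 and 0.091 under those first 5 settings, 0.59 against a fold of 1.5 and 0.38 summed with Fcgr2b, and ranged from 0.56 to 0.63. Fcer1g was -0.13 under library totals and -0.049 with limma. Fcgrt was 0.48 with upper-quartile factors, 0.066 under library totals, 0.39 with Hprt, 0.65 against a fold of 1.5 and 0.14 with limma, none called.

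Genes called higher and lower were 3002 and 3597 with poly(I:C), 2082 and 2534 with CL075, and 2684 and 2803 between the ligands. Under library totals they were 1546 and 7663, 1208 and 4184, and 1629 and 5631. With limma they were 1602 and 7147, 1161 and 3883, and 1663 and 4847. With Hprt 5920 were lower with poly(I:C), and 1314 higher and 3814 lower with CL075. The log2 ratio of activating to inhibitory transcripts, 0.28 for poly(I:C) against control, was 1.02 without Fcgr3, 1.23 for Fcgr4, 0.75 for Fcgr1 and -1.37 for Fcgr3 alone. For CL075, at -1.27, it was -0.81, -0.95, -0.67 and -1.96. Between the ligands, at 1.55, it was 1.83 without Fcgr3, 2.19 for Fcgr4, 1.43 for Fcgr1 and 0.59 for Fcgr3 alone.

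Same-numbered libraries of different groups deviated together (median correlation 0.224 over 15 pairs, lowest -0.004, against -0.047 over 60 other pairs), and the closest library had the same number in 27 of 30 comparisons. The deposited library names also carry the same WT number in every group, which points to matched sets. What the number stands for is not stated, and the main tests left such pairing out. The replicate block changed no call of the 6 genes (Fcgr4 3.17 with poly(I:C)) and gave 3011 and 3616 calls with poly(I:C), 2093 and 2558 with CL075, and 2690 and 2812 between the ligands.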
